A study of Drosophila melanogaster with 24 samples.

Results

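The circadian clock genes per, tim, Clk, cyc, vri, Pdp1, cry and cwo were followed across 6 groups of whole male Drosophila melanogaster. They were found by symbol among the 17768 genes of the gene table, where all 8 were present, and all 8 were among the 13868 genes with enough counts to be tested. The flies were homozygous (Reldel/Reldel), heterozygous (+/Reldel) or wild type (+/+) for a deletion of Rel, the gene of the NF-kappaB factor Relish, and all lines were in a yw background. Each genotype was sampled 4 h after a traumatic brain injury or without injury. The series tested how Rel dosage bears on the outcome of such an injury. The 6 groups were homozygous injured, homozygous uninjured, heterozygous injured, heterozygous uninjured, wild-type injured and wild-type uninjured, with 4 libraries each, from flies aged 1 to 7 days and kept at 25 °C. The labels give no clock hour of collection and no light cycle, and they do not say whether uninjured flies were frozen when the others were injured or 4 h later. Whether the 4 libraries of one group stem from separate cultures is not stated either, so p-values measure only the spread between libraries, which may be technical.

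The clock runs on a loop in which the transcription factors CLK and CYC bind together and switch on per and tim. PER and TIM proteins gather through the night, return to the nucleus and shut CLK and CYC off until they are degraded the next day. VRI and PDP1 form a second loop that represses and activates Clk, CWO competes at the same promoter elements, and CRY is a blue-light receptor that leads TIM to degradation. In fly heads, transcripts of per, tim, vri, Pdp1 and cwo are known to peak around dusk and the early night, those of Clk and cry around dawn, and that of cyc stays flat. The loop runs in clock neurons, photoreceptors, glia, fat body, gut and Malpighian tubules, so a whole-fly library mixes many clocks. In such bulk RNA, fewer cells of a type and less RNA per cell cannot be told apart.

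Library totals ranged from 6543632 to 14660491 counts, so that 3 counts in a library stood for 0.203 to 0.465 CPM (counts scaled to library size). Rel had no count in homozygous injured libraries and at most 1 count in homozygous uninjured libraries. It averaged 61.9 ± 19.0 CPM in heterozygous injured and 38.8 ± 12.4 CPM in heterozygous uninjured libraries, against 144.5 ± 22.6 CPM in wild-type injured and 69.8 ± 9.84 CPM in wild-type uninjured libraries (SD, n = 4 each). A pair of libraries stood apart. Homozygous injured replicate 1 had a summed 2536 CPM over the 8 neuron markers, while the other 3 of its group had 940.9 to 1205 CPM. It was the highest of that group in Clk, Pdp1, cwo and per and the lowest in cry, cyc and, by little, vri. Wild-type injured replicate 4 had a summed 181 CPM over 6 yolk and eggshell markers, against 1.41 to 4.72 CPM in the other 3 of its group, although all samples are labelled male. In wild-type uninjured flies Cp36, Cp38 and Vm26Aa of that list had no count. The testis markers, whose 10 genes were all detected in every group, summed to 2808 to 3984 CPM in the 24 libraries.

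Levels were compared between the genes per length, taken as the union of all annotated exons of a gene. On that scale cry, the photoreceptor, led with 37.3 ± 6.72 CPM per kilobase (SD over 24 libraries). The repressor tim followed with 22.9 ± 4.03 CPM per kilobase and vri with 18.6 ± 3.60 CPM per kilobase. Below them Clk had 14.2 ± 2.77, Pdp1 13.4 ± 3.88, cyc 11.6 ± 1.55 and cwo 10.3 ± 2.30 CPM per kilobase, and these neighbours lay within one SD of each other. For Pdp1 the union is 12138 bases, while its main transcript, Pdp1-RP, has 6398 bases. The value of Pdp1 is thus low on this scale, and its place in the order is uncertain. The repressor per was last with 3.14 ± 0.680 CPM per kilobase, so that the partners per and tim stood far apart in level. In counts, per had the fewest reads, 76 to 265 a library, and tim and Pdp1 the most, 777 to 2850 and 751 to 2585.

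The genes lie apart on 4 chromosome arms, in the coordinates of build dm6 as given by the Ensembl annotation. They are per (FBgn0003068) at X:2685580-2692780 on the plus strand, tim (FBgn0014396) at 2L:3493986-3508119 on the minus strand, and vri (FBgn0016076) at 2L:5288944-5311223 on the plus strand. On arm 3L are Clk (FBgn0023076) at 3L:7763233-7775603 and Pdp1 (FBgn0016694) at 3L:7811458-7867369, with cyc (FBgn0023094) at 3L:19813770-19815938, all on the minus strand. On arm 3R are cwo (FBgn0259938) at 3R:10388258-10400752 and cry (FBgn0025680) at 3R:19212154-19215442, both on the plus strand. Use of strand in counting is not given in the sources used here, so genes that share exon sequence with a neighbour are uncertain. These are per with dyw, tim with snoRNA:Or-CD16 and lncRNA:CR46495, and cry with lncRNA:CR46393 and vib. Of these neighbours, vib averaged 81.4 CPM, lncRNA:CR46393 reached at most 7 counts in a library and snoRNA:Or-CD16 had 0 counts, while dyw and lncRNA:CR46495 were not analysed here.

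Of the 39 annotated transcripts of the 8 genes in the transcript table, 34 had enough counts to be tested. The estimates place most Clk counts, 78.6% over all libraries, on the pair of transcripts Clk-RG and Clk-RH, which start inside the gene, and 21.4% on the 3 that start at its upstream end. For Pdp1, 72.2% of counts went to 7 transcripts that share one start, led by Pdp1-RP with 55.7%, and 20.7% to Pdp1-RD and Pdp1-RJ, which start further downstream. For vri, 92.1% went to vri-RA. For cwo, 55.3% went to cwo-RA, 31.8% to cwo-RC and 12.9% to cwo-RB, and all 3 share a start. The estimates for tim spread over 9 transcripts, and tim-RB and tim-RT had the same value in every library, so they were not told apart there.

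**Figure D1:**
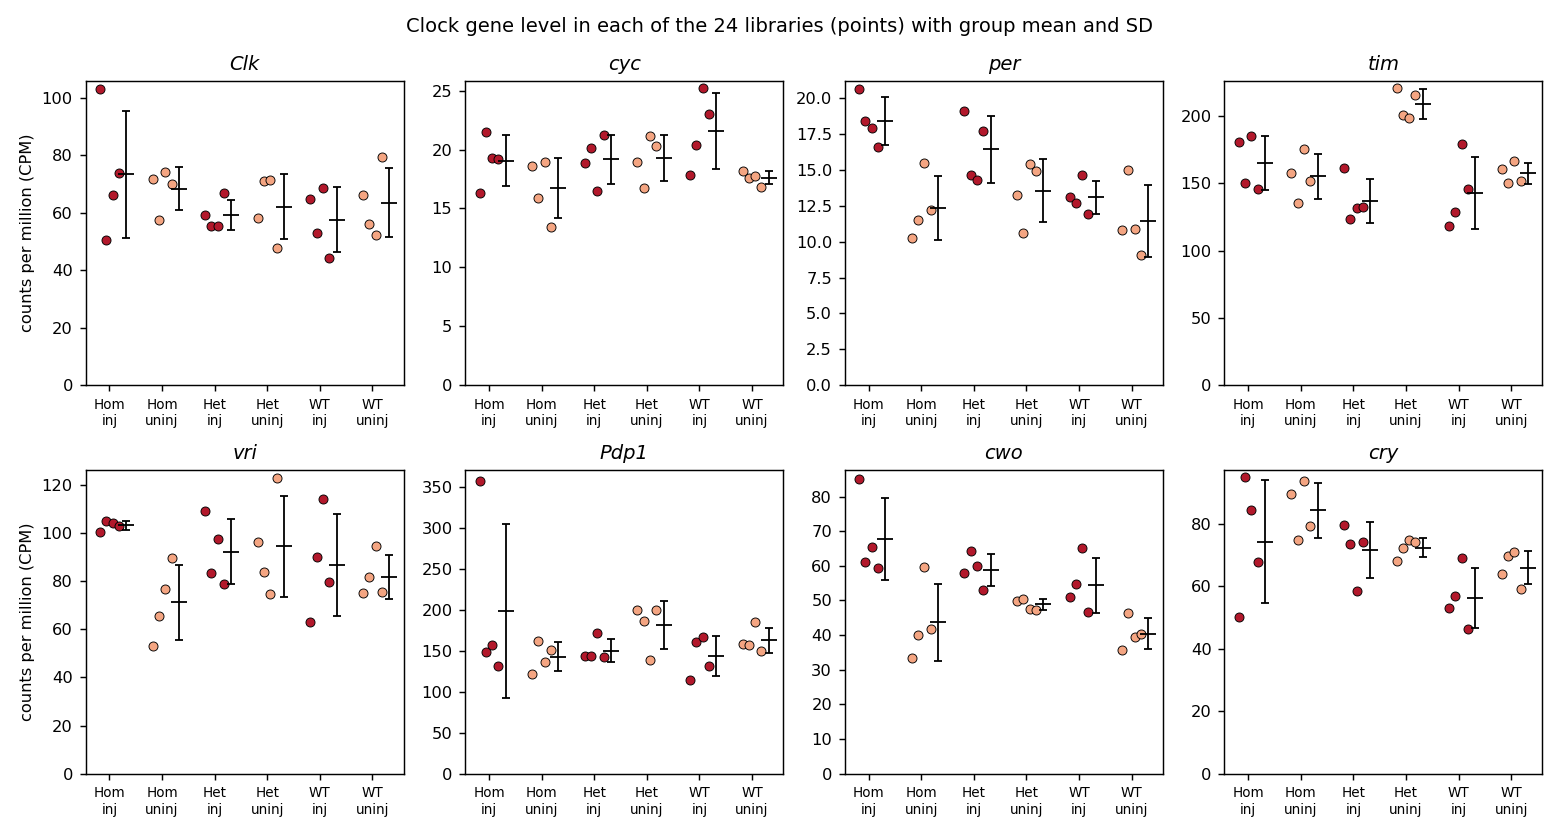
Level of each clock gene in CPM (vertical axis) in every library (points) of the 6 groups (Hom, homozygous; Het, heterozygous; WT, wild type; inj, injured; uninj, uninjured), with the group mean and SD (bars, n = 4). The 4 heterozygous uninjured libraries are the highest of all 24 for tim, and homozygous injured replicate 1 lies far above the rest for Pdp1 at 357.7 CPM.

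In the average over the 3 genotypes, 3 of the 8 genes passed the test for injury. The repressors cwo and per were higher in injured flies and the repressor tim was lower. The clock gene cwo was higher by 0.44 ± 0.08 on the log2 scale (SE; 1.36-fold), with 60.3 ± 9.73 CPM in the 12 injured libraries and 44.3 ± 7.30 CPM in the 12 uninjured libraries (SD). For per the log2 difference was 0.34 ± 0.09 (1.27-fold), with 16.0 ± 2.81 CPM in injured and 12.4 ± 2.28 CPM in uninjured libraries. For tim it was -0.22 ± 0.07, with 148.5 ± 23.3 CPM in injured and 173.7 ± 28.2 CPM in uninjured libraries. By genotype the tim value was -0.61 ± 0.12 in heterozygotes, -0.14 ± 0.12 in wild type and 0.09 ± 0.12 in homozygotes. Of these only the heterozygous value passed. The adjusted p-values of the edgeR quasi-likelihood test were 0.000596 for cwo, 0.0113 for per and 0.0333 for tim. In this comparison 18.3% of all genes tested were called, 11.6% higher and 6.71% lower. The median log2 difference of the 8 genes was 0.08, against -0.01 over all genes tested. The call for tim was lost in 12 of the 24 fits that leave out 1 library each, with an adjusted p of 0.0795 at most, while those for cwo and per held in all 24. It held at -0.23 ± 0.07 without homozygous injured replicate 1 and was lost at -0.22 ± 0.08 without wild-type injured replicate 4 (adjusted p = 0.0559).

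The other 5 genes did not pass the test in that average. The activators gave log2 differences of -0.04 ± 0.11 for Clk and 0.16 ± 0.07 for cyc, with adjusted p of 0.836 and 0.143 in the edgeR quasi-likelihood test. The loop that controls Clk gave 0.20 ± 0.10 for its repressor vri and 0.01 ± 0.13 for its activator Pdp1, with adjusted p of 0.173 and 0.971. For the light receptor cry the value was -0.14 ± 0.09, with adjusted p of 0.261. Without homozygous injured replicate 1 the Pdp1 value was -0.14 ± 0.08 and the Clk value -0.11 ± 0.09, and neither passed.

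Within wild type no clock gene passed the test for injury, where 3.79% of all genes tested were called. At an unadjusted p under 0.05 there were 2 of the 8, cwo and cyc, against 14.1% of all genes in edgeR, and DESeq2 called 0 of the 8. The cwo gene had 51.1, 54.7, 65.3 and 46.7 CPM in wild-type injured flies, against 35.8, 46.3, 39.4 and 40.4 CPM in wild-type uninjured flies. Every injured library was above every uninjured one, and the closest pair was 46.7 against 46.3 CPM. The log2 difference was 0.42 ± 0.15, with an adjusted p of 0.125 (edgeR quasi-likelihood test). The authors' deposited table gives cwo a log2 change of 0.44 for injured over uninjured wild type, with an adjusted p of 0.0305. That is the only one of the 8 genes past 0.05 in that table. For cyc the levels were 17.8, 20.4, 25.2 and 22.99 CPM in wild-type injured flies, against 18.2, 17.6, 17.8 and 16.9 CPM in wild-type uninjured flies. Most injured libraries were higher, with overlap, and the log2 difference was 0.30 ± 0.13 with an adjusted p of 0.281 (edgeR quasi-likelihood test).

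**Figure D2:**
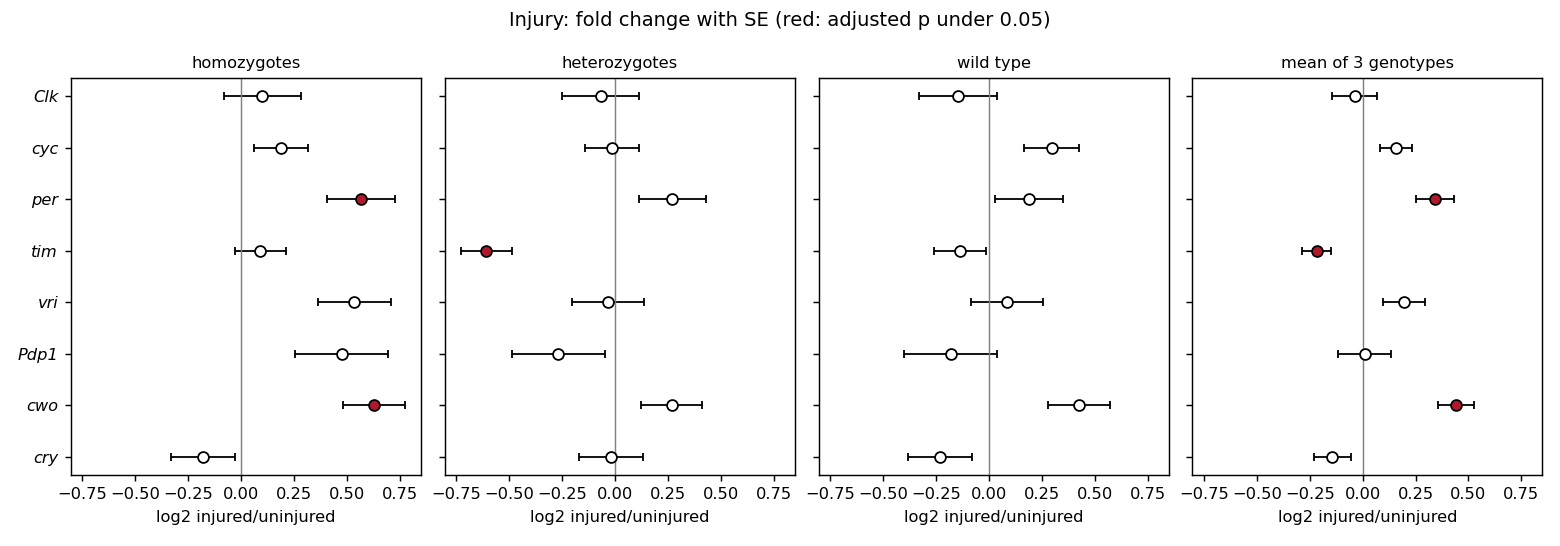
Log2 fold change of each clock gene, injured over uninjured, with its SE (horizontal axis), in homozygotes, heterozygotes, wild type and as the mean of the 3 genotypes (panels). Filled points have an adjusted p under 0.05: per and cwo in homozygotes, tim in heterozygotes, and per, tim and cwo in the mean.

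In heterozygotes tim was the clock gene that changed with injury, and it fell. Its levels were 161.1, 123.8, 131.4 and 132.0 CPM in heterozygous injured flies, against 220.8, 200.9, 198.4 and 215.3 CPM in heterozygous uninjured flies. The groups were far apart: the highest injured library had 161.1 CPM and the lowest uninjured one 198.4 CPM. The log2 difference was -0.61 ± 0.12, a level of 0.656 times that of uninjured heterozygotes, with an adjusted p of 0.00354 (edgeR quasi-likelihood test). In this comparison 4.74% of all genes tested were called, and 1.5% were called lower. The call held in all 8 fits that leave out 1 library, with log2 values of -0.70 to -0.56 and an adjusted p of 0.0199 at most. The authors' deposited table gives -0.60 for injured over uninjured heterozygotes, with an adjusted p of 0.00939.

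Heterozygous uninjured flies held the highest tim levels of the series. Their 4 values, 198.4 to 220.8 CPM, were the highest of the 24 libraries, and the next was 184.8 CPM in a homozygous injured library. Heterozygous injured flies had a mean of 137.1 CPM, against 143.1 CPM in wild-type injured flies. Between uninjured groups, tim had 208.9 ± 10.9 CPM in heterozygotes and 157.3 ± 7.59 CPM in wild type (SD, n = 4 each), a log2 difference of 0.41 ± 0.12 with an adjusted p of 0.196 (edgeR quasi-likelihood test). At the level of transcripts no tim transcript passed for injury in heterozygotes, where 0.971% of all transcripts tested were called. The 2 with the most counts, tim-RM and tim-RS, gave log2 differences of -0.45 ± 0.26 and -1.44 ± 0.62, with adjusted p of 0.608 and 0.409 in edgeR, and DESeq2 called 0 of the tim transcripts. Of the 7 tim transcripts tested, tim-RS alone had an unadjusted p under 0.05 in edgeR, which 10.6% of all transcripts had. The tim partner per had 19.1, 14.7, 14.3 and 17.7 CPM in heterozygous injured flies, against 13.3, 10.6, 15.4 and 14.9 CPM in heterozygous uninjured flies. These groups overlapped, with a log2 difference of 0.27 ± 0.16 and an adjusted p of 0.378. The cwo values, 58.0, 64.2, 59.9 and 53.1 CPM in heterozygous injured flies against 49.9, 50.6, 47.6 and 47.4 CPM in heterozygous uninjured flies, did not overlap, yet the log2 difference of 0.27 ± 0.15 did not pass, with an adjusted p of 0.333.

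In homozygotes, which lack Rel, injury raised per and cwo, against a background of 5.86% of all genes tested called and 4.71% called higher. Levels of cwo were 85.1, 61.0, 65.4 and 59.4 CPM in homozygous injured flies, against 33.3, 39.9, 59.5 and 41.9 CPM in homozygous uninjured flies. One uninjured library lay just above the lowest injured one and the other 3 were well below. The log2 difference was 0.63 ± 0.15 (1.55-fold), with an adjusted p of 0.00963 (edgeR quasi-likelihood test). Levels of per were 20.6, 18.4, 17.96 and 16.6 CPM in homozygous injured flies, against 10.3, 11.5, 15.5 and 12.2 CPM in homozygous uninjured flies, with no overlap. Its log2 difference was 0.57 ± 0.16 (1.48-fold), with an adjusted p of 0.0346. The median log2 difference of the 8 genes was 0.33, against -0.01 over all genes tested. That median was 0.45 for the neuron, 0.34 for the glia and 0.17 for the photoreceptor markers. For the fat body, muscle and testis markers it was 0.03, -0.01 and -0.27. These medians include homozygous injured replicate 1, the library with the high neuron markers. The summed glia markers were at 813.6 ± 104.9 CPM in homozygous injured and 707.4 ± 24.5 CPM in homozygous uninjured flies (SD, n = 4 each). Their part in the clock gene differences was not tested.

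The per call in homozygotes stood near the threshold. It held in 2 of the 8 fits that leave out 1 library, with adjusted p of 0.0137 to 0.113 over these fits. It held without homozygous injured replicate 4 and without homozygous uninjured replicate 3, and was lost without each of the other 6 libraries. When only the homozygous libraries were fitted, the adjusted p was 0.103 for per and 0.131 for cwo, so both calls rest on the spread taken from all 6 groups. The cwo call held in all 8 fits that leave out 1 library. Without homozygous injured replicate 1 it was 0.50 ± 0.14, with an adjusted p of 0.0432, and per was 0.51 ± 0.17, with an adjusted p of 0.0920. In the authors' deposited table the log2 changes for injured over uninjured homozygotes are 0.61 for per and 0.65 for cwo, with adjusted p of 0.0765 and 0.0515.

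The repressor vri was nearly constant among the injured homozygotes. Its levels were 100.6, 105.2, 104.2 and 103.0 CPM in homozygous injured flies, against 52.9, 65.5, 76.9 and 89.6 CPM in homozygous uninjured flies, again without overlap. The log2 difference was 0.53 ± 0.17 with an adjusted p of 0.0672 in the edgeR quasi-likelihood test and 0.0416 in DESeq2. In homozygotes Pdp1 depended on 1 library: it had 357.7, 148.9, 156.5 and 131.8 CPM in homozygous injured flies, against 121.3, 162.3, 136.1 and 150.7 CPM in homozygous uninjured flies. Its log2 difference was 0.48 ± 0.22 with all libraries (adjusted p = 0.205) and 0.03 ± 0.14 without homozygous injured replicate 1 (adjusted p = 0.943, edgeR quasi-likelihood test). That library was also the one with 2536 CPM of neuron markers, and the part of that in the Pdp1 value was not tested. The tim values overlapped in homozygotes, with 180.5, 150.1, 184.8 and 145.7 CPM in homozygous injured flies against 157.4, 135.7, 175.5 and 151.7 CPM in homozygous uninjured flies, a log2 difference of 0.09 ± 0.12 (adjusted p = 0.699).

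Of the cwo transcripts, cwo-RA passed the test for injury. Averaged over genotypes, cwo-RA was higher by 0.76 ± 0.15 on the log2 scale in injured flies, with an adjusted p of 0.0038 (edgeR quasi-likelihood test), while 6.12% of all 26667 transcripts tested were called. It was the single clock transcript called in that comparison. Its level was 41.1 ± 13.0 against 23.2 ± 6.504 CPM in injured and uninjured homozygotes, 38.7 ± 5.01 against 25.1 ± 0.526 CPM in injured and uninjured heterozygotes, and 31.1 ± 13.2 against 17.0 ± 3.62 CPM in injured and uninjured wild type (SD, n = 4). The other main transcript, cwo-RC, differed by 0.31 ± 0.17, with an adjusted p of 0.330. The cwo transcripts share one start, and how RSEM divides reads between such transcripts is an estimate.

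For the question whether the groups were collected at different times of day, ratios of dusk to dawn genes were taken inside each library. They set tim and vri against Clk alone, and none was taken against the other dawn gene, cry. How well Clk marks the time of day in whole flies was not tested. Of the dusk genes, per and cwo rose in the mean of 3 genotypes, and vri and Pdp1 did not pass. The dusk gene tim fell in that mean, and by genotype it passed only in heterozygotes. The log2 ratio of the dusk gene tim to the dawn gene Clk averaged 1.21 ± 0.37 in homozygous injured and 1.18 ± 0.07 in homozygous uninjured flies. It was 1.201 ± 0.19 in heterozygous injured and 1.76 ± 0.34 in heterozygous uninjured flies, and 1.31 ± 0.35 in wild-type injured and 1.32 ± 0.30 in wild-type uninjured flies (SD, n = 4 each). The heterozygous pair was the one without overlap, 0.98 to 1.43 in injured and 1.47 to 2.16 in uninjured libraries. The log2 ratio of vri to Clk averaged 0.54 ± 0.45 in homozygous injured and 0.04 ± 0.34 in homozygous uninjured flies. It was 0.63 ± 0.28 in heterozygous injured and 0.60 ± 0.57 in heterozygous uninjured flies, and 0.58 ± 0.41 in wild-type injured and 0.37 ± 0.40 in wild-type uninjured flies, with overlap in every genotype. An hour of collection that differs between groups cannot be told apart from the injury or genotype itself in this design.

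Of the ratios taken, only that of cwo to tim separated injured from uninjured libraries in every genotype. The cwo to tim and per to tim ratios were chosen after the fold changes were seen and are given as a description only. Ratios of the remaining pairs of clock genes, or of other genes, were not taken. The log2 ratio of cwo to tim averaged -1.29 ± 0.17 in homozygous injured and -1.84 ± 0.28 in homozygous uninjured flies. It was -1.21 ± 0.23 in heterozygous injured and -2.08 ± 0.09 in heterozygous uninjured flies, and -1.38 ± 0.20 in wild-type injured and -1.95 ± 0.20 in wild-type uninjured flies. Injured and uninjured libraries did not overlap in any of the 3 genotypes, but the gap was small in homozygotes and wild type. The lowest injured and highest uninjured values were -1.49 and -1.55 in homozygotes and -1.63 and -1.69 in wild type. In heterozygotes they were -1.47 and -1.98. The log2 ratio of per to tim averaged -3.13 ± 0.14 in homozygous injured and -3.61 ± 0.19 in homozygous uninjured flies. It was -3.02 ± 0.12 in heterozygous injured and -3.91 ± 0.23 in heterozygous uninjured flies, and -3.39 ± 0.21 in wild-type injured and -3.75 ± 0.32 in wild-type uninjured flies. For this ratio wild type overlapped and both mutant genotypes did not.

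**Figure D3:**
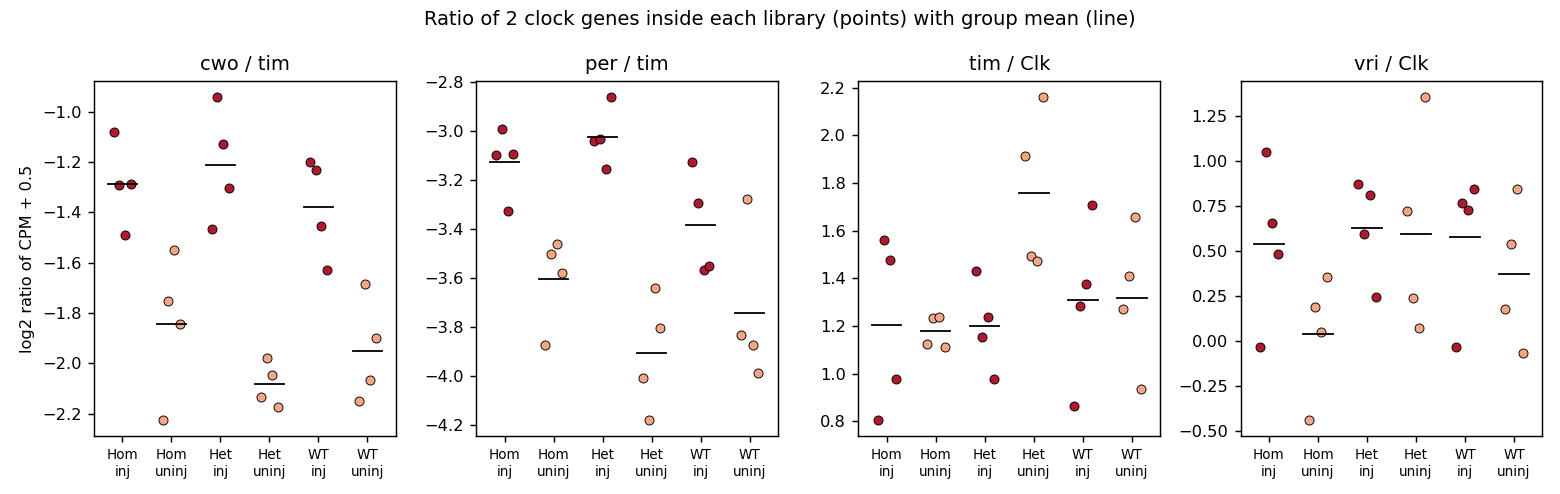
Log2 ratio of the levels (CPM + 0.5, vertical axis) of 2 clock genes inside each library (points), with the mean of each group (lines), in the 6 groups named as Hom, Het and WT, injured or uninjured. Injured libraries lie above uninjured ones in each genotype for cwo over tim, while tim over Clk stands higher in heterozygous uninjured flies.

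Of the 8 clock genes, 1 passed a test between Rel genotypes: cry, which was higher in homozygotes than in wild type. Over both injury states cry had 79.2 ± 15.0 CPM in the 8 homozygous libraries and 61.1 ± 8.83 CPM in the 8 wild-type libraries (SD), a log2 difference of 0.38 ± 0.11 (SE; 1.3-fold) with an adjusted p of 0.0246 (edgeR quasi-likelihood test). In this comparison 9.11% of all genes tested were called, and 4.62% were called higher. Among injured flies it had 50.1, 94.8, 84.4 and 67.8 CPM in homozygotes, against 53.0, 57.0, 68.9 and 46.2 CPM in wild type. Among uninjured flies it had 89.5, 74.7, 93.5 and 79.2 CPM in homozygotes, against 64.0, 69.7, 70.8 and 59.2 CPM in wild type. The uninjured groups did not overlap, and the injured groups overlapped, with 2 homozygous libraries, 50.1 and 67.8 CPM, below the highest wild-type library at 68.9 CPM. The lower of the 2 was replicate 1, the library with the high neuron markers.

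Within a single injury state cry did not pass. The log2 difference was 0.40 ± 0.15 in injured flies, with an adjusted p of 0.155, and 0.35 ± 0.15 in uninjured flies, with an adjusted p of 0.275 (edgeR quasi-likelihood test). Without homozygous injured replicate 1 the injured value was 0.55 ± 0.13 with an adjusted p of 0.0161, and the mean over both states was 0.45 ± 0.09 with an adjusted p of 0.00145. Of the 16 fits that leave out 1 library, the call on the mean held in 10, with adjusted p of up to 0.0714. It was lost without wild-type injured replicates 1 and 4, wild-type uninjured replicate 4, homozygous injured replicates 2 and 3, and homozygous uninjured replicate 3. Heterozygotes lay between, with 71.9 ± 6.23 CPM over both states (SD, n = 8) and a log2 difference from wild type of 0.24 ± 0.11 that did not pass (adjusted p = 0.363, edgeR quasi-likelihood test). Beside this, the summed photoreceptor markers, whose cells are known to express cry, were at 6242 ± 448 CPM in homozygous uninjured and 9107 ± 1964 CPM in wild-type uninjured flies (SD, n = 4 each). Of the 12, 3 fell there, ninaC, inaD and norpA, where 3.96% of all genes were called. Among injured flies the sums were 6940 ± 1252 CPM in homozygotes and 6451 ± 401 CPM in wild type. Of the 12, 0 were called there, where 4.28% of all genes were. The part of these markers in the cry difference was not tested. In the transcript table, edgeR called no clock transcript between homozygotes and wild type among injured flies or over both states, where it called 1.61% and 3.97% of all transcripts tested. At an unadjusted p under 0.05 it had 4 of the 34 among injured flies (11.7% of all transcripts) and 3 over both states (14.2%). DESeq2 called 1 in each, Clk-RH among injured flies and cry-RA over both states, and edgeR gave these adjusted p-values of 0.0914 and 0.0698. The neighbour vib, which shares exon sequence with cry, differed by 0.05 ± 0.09 between homozygotes and wild type in the same fit.

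No other member passed a genotype comparison. Of the 8 genes, 0 were called in homozygotes against wild type among injured flies, where 4.28% of all genes were called, and 0 among uninjured flies, where 3.96% were. At an unadjusted p under 0.05 in edgeR there were 4 of the 8 among injured flies (16.7% of all genes) and 1 among uninjured flies (13.1%), and DESeq2 called 0 in both. In heterozygotes against wild type 0 were called among injured flies (0.296% of all genes), uninjured flies (0.498%) and over both states (1.49%), and DESeq2 called 0 in each. At an unadjusted p under 0.05 in edgeR there were 2 of the 8 among injured flies (5.91% of all genes), 1 among uninjured flies (9.54%) and 2 over both states (11.9%). Among injured flies per had 18.4 ± 1.67 CPM in homozygotes and 13.1 ± 1.15 CPM in wild type (SD, n = 4 each), without overlap, a log2 difference of 0.49 ± 0.16 with an adjusted p of 0.0894 (edgeR quasi-likelihood test). The activator cyc was the one member below wild type in homozygotes over both states, with a log2 difference of -0.13 ± 0.09 that did not pass (adjusted p = 0.504).

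**Figure D4:**
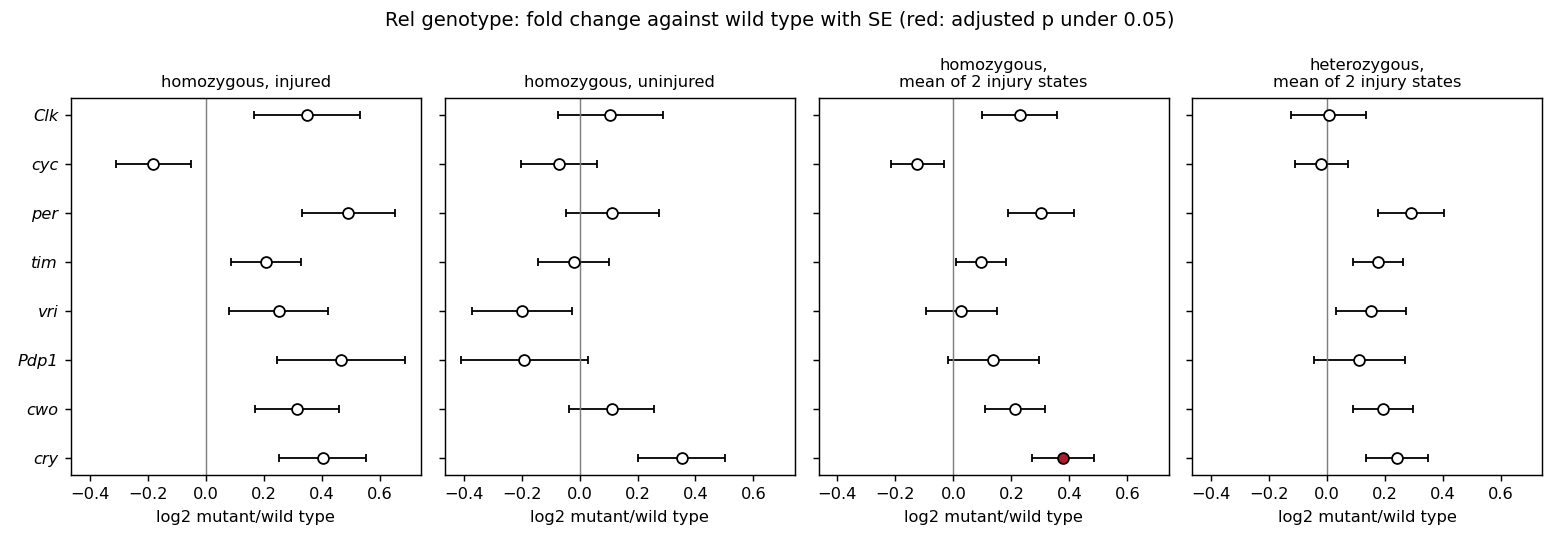
Log2 fold change of each clock gene against wild type with its SE (horizontal axis) in homozygotes among injured flies, among uninjured flies and over both states, and in heterozygotes over both states (panels). The one filled point, with an adjusted p under 0.05, is cry in homozygotes over both states at 0.38.

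The injury response of a mutant genotype was not shown to differ from that of wild type for any clock gene. No gene at all was called in either test of that difference (0% of all genes), and DESeq2 called 0 of the 8. At an unadjusted p under 0.05 edgeR had 363 genes for heterozygotes (2.62%), tim among them, and 647 for homozygotes (4.67%), Pdp1 among them. For tim the injury response in heterozygotes minus that in wild type was -0.47 ± 0.17 on the log2 scale, with an unadjusted p of 0.0118 and an adjusted p of 1. For homozygotes minus wild type the largest clock values were 0.66 ± 0.31 for Pdp1, 0.45 ± 0.24 for vri and 0.38 ± 0.23 for per, each with an adjusted p of 0.934. So neither the tim change in heterozygotes nor the per change in homozygotes was shown to differ from wild type.

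Between libraries of one group, tim and cyc were the steadiest members and Pdp1 the most variable. The residual SD around the group means, on the log2 scale, was 0.16 for tim and 0.17 for cyc, and 15.2% and 16.8% of all genes tested had a smaller one. It was 0.21 for per, 0.21 for cwo, 0.22 for cry, 0.26 for vri, 0.27 for Clk and 0.32 for Pdp1, against a median of 0.25 over all genes tested. Inside groups the members were not tightly coupled: of 28 pairs, 21 had a positive Pearson correlation over the 24 libraries and 0 passed a permutation test after adjustment over the pairs. The strongest were cyc with cry (r = 0.61, rho = 0.62, adjusted permutation p = 0.125 and 0.121) and tim with vri (r = 0.55, rho = 0.54, adjusted permutation p = 0.160 and 0.121). Without the 2 libraries farthest from the median of the first gene, r was 0.67 for cyc with cry and 0.37 for tim with vri.

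Several members moved with cell type markers instead, in 56 pairs of a member and a summed marker list that were added after the values were seen. Inside groups Pdp1 followed the 8 neuron markers with r = 0.91 and rho = 0.79 over 24 libraries (adjusted permutation p = 0.00728 and 0.00868), and with r = 0.77 without the 2 libraries farthest from the median. It also followed the fat body markers, with r = 0.54 and rho = 0.68 (adjusted permutation p = 0.0353 and 0.0222). The repressor vri was low where the 10 testis markers were high, with r = -0.67 and rho = -0.71 (adjusted permutation p = 0.00812 and 0.00868) and r = -0.58 without the 2 farthest libraries. For per against the testis markers r was -0.60 and rho -0.63 (adjusted permutation p = 0.0401 and 0.0402), and -0.55 without the 2 farthest libraries. With the glia markers per gave r = 0.51 and rho = 0.55 (adjusted permutation p = 0.0401 and 0.0783), and r = 0.40 without the 2 farthest libraries. In all, 5 of the 56 pairs passed by r and 5 by rho, the fifth by rho being vri with the photoreceptor markers (rho = 0.54, adjusted permutation p = 0.0476). The same correlations were not run for genes outside the clock set. The share of all genes that would pass is thus not known, and the counts do not set clock genes apart. CPM values of one library share a total, so a higher share for one tissue lowers the others.

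The sums of these marker lists are given by group as a description, with no test of the sums. The 10 testis markers summed to 3293 ± 389 CPM in homozygous injured and 3688 ± 215 CPM in homozygous uninjured flies, to 3434 ± 374 CPM in heterozygous injured and 3309 ± 387 CPM in heterozygous uninjured flies, and to 3445 ± 311 CPM in wild-type injured and 3616 ± 251 CPM in wild-type uninjured flies (SD, n = 4 each). Their part in the vri and per differences was not tested. The 12 photoreceptor markers summed to 6940 ± 1252 CPM in homozygous injured and 6242 ± 448 CPM in homozygous uninjured flies, to 6409 ± 1384 CPM in heterozygous injured and 8286 ± 1357 CPM in heterozygous uninjured flies, and to 6451 ± 401 CPM in wild-type injured and 9107 ± 1964 CPM in wild-type uninjured flies. Further marker sums are given for heterozygotes, where tim fell. The 6 fat body markers, of which 4 were tested, summed to 647.6 ± 46.8 CPM in heterozygous injured and 1010 ± 249.7 CPM in heterozygous uninjured flies, without overlap. Of them 1 fell, the fatty acid synthase FASN1 (log2 difference -0.81 ± 0.19, adjusted p = 0.0121, edgeR quasi-likelihood test), where 1.5% of all genes were called lower. FASN1 averaged 302.3 CPM in heterozygous injured and 530.2 CPM in heterozygous uninjured flies and made up much of the drop in the sum. Of the 4 tested, 2 had a log2 difference above 0, so the list did not move as one. The 6 muscle markers summed to 6880 ± 1255 CPM in heterozygous injured and 5212 ± 258 CPM in heterozygous uninjured flies, with overlap. Of these 0 were called (4.74% of all genes), although 4 had an unadjusted p under 0.05 (18.9% of all genes). The part of the photoreceptor, fat body and muscle lists in the tim difference was not tested. In the mean of 3 genotypes 18.3% of all genes were called, 11.6% higher and 6.71% lower. There Arr2 fell, the 1 called of the 12 photoreceptor markers. Of the 4 fat body markers tested, apolpp and FASN1 fell and bmm rose in that mean, and of the 6 muscle markers sls rose.

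The 6 glia markers, which per followed inside groups, summed to 724.2 ± 30.9 CPM in heterozygous injured and 684.1 ± 58.2 CPM in heterozygous uninjured flies, and to 699.0 ± 59.2 CPM in wild-type injured and 697.0 ± 28.5 CPM in wild-type uninjured flies (SD, n = 4 each). In homozygotes, where per and cwo rose, 1 of the 6 rose with injury, the blood-brain barrier receptor moody, by 0.999 ± 0.19 on the log2 scale (adjusted p = 0.00205, edgeR quasi-likelihood test). Of all genes tested, 4.71% were called higher there. In the mean of 3 genotypes, where 11.6% of all genes were called higher, 2 of the 6 rose. They were moody by 0.49 ± 0.11 (adjusted p = 0.00287) and the glutamine synthetase Gs2 by 0.29 ± 0.09 (adjusted p = 0.0335). The part of the glia list in the per and cwo differences was not tested. The fat body markers, which Pdp1 followed, summed to 874.4 ± 86.2 CPM in homozygous injured and 1083 ± 237 CPM in homozygous uninjured flies, and to 773.6 ± 191.7 CPM in wild-type injured and 1041 ± 172 CPM in wild-type uninjured flies.

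**Figure D5:**
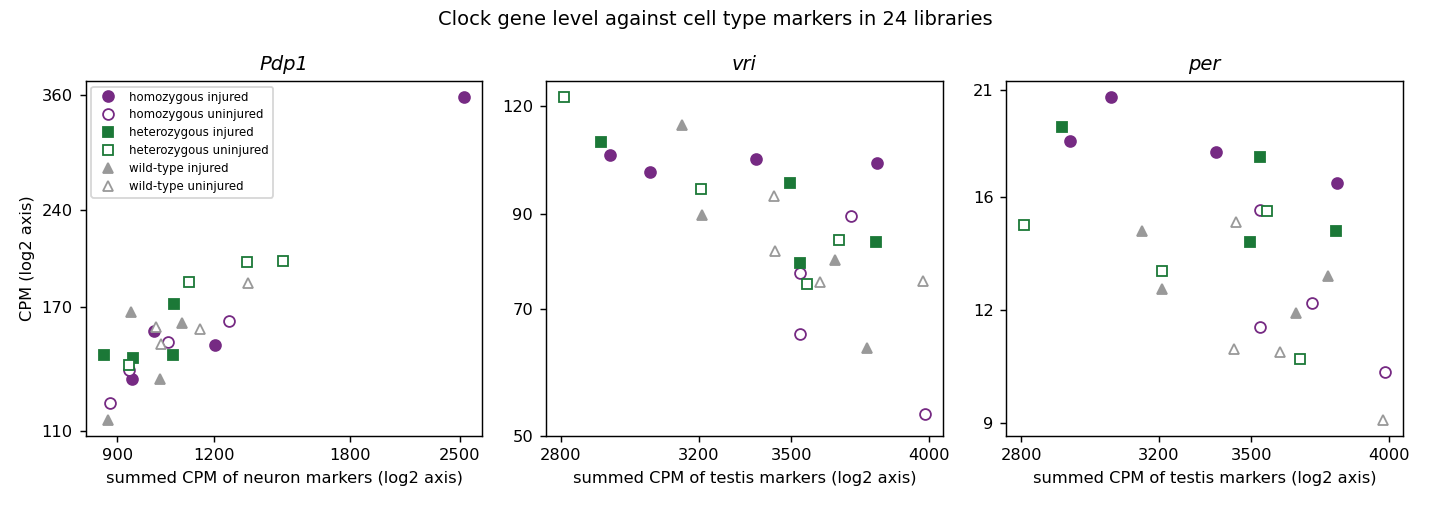
Level of Pdp1, vri and per in CPM (vertical axes, log2 scale) against the summed CPM of neuron or testis markers (horizontal axes, log2 scale) in the 24 libraries, with genotype by shape and colour and injured libraries filled. Pdp1 rises with the neuron markers, with homozygous injured replicate 1 at the upper right, and vri and per are lower where testis markers are higher.

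The genes with the most similar pattern over the 24 libraries, by Pearson's r of log2(CPM + 0.5) among genes with a mean of at least 1 CPM, were other than clock genes for tim, vri and Clk. For tim they were goe (r = 0.88), ATP8A, a phospholipid flippase (0.79), ine, a transporter (0.77), CG13671 (0.77) and RhoGAP1A (0.76). For vri they were Archease (0.81), the cation channel Trpm (0.80), the transcription factor REPTOR (0.77), the phosphodiesterase Pde11 (0.76) and wun (0.75). For Clk they were closer, with CG46385 at 0.94, the ubiquitin-conjugating enzyme eff at 0.93, Larp4B at 0.92, fest at 0.91 and the RNA-binding protein Imp at 0.91. The values for Clk stayed between 0.89 and 0.96 without the 2 libraries at its extremes. No summed marker list passed with Clk. The strongest was the photoreceptor list, with r = -0.46 (adjusted permutation p = 0.2175) and rho = -0.54 (adjusted permutation p = 0.103). The testis list gave r = 0.32 (adjusted permutation p = 0.4996) and rho = 0.34 (adjusted permutation p = 0.378). Among clock genes the nearest pair was per and cwo, with r = 0.80 over the pooled libraries, in which both genes rose with injury: cwo ranked 24th of 13180 genes for per, and per ranked 84th for cwo. With group means removed r was 0.53 and rho 0.31 (adjusted permutation p = 0.125 and 0.439), and r was 0.32 without the 2 farthest libraries.

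Genes that act on clock proteins were followed as a list. Of 16 kinases, phosphatases, degradation and translation factors, such as dbt, sgg and slmb, 1 rose with injury in the mean of 3 genotypes and 15 did not pass, where 18.3% of all genes were called. The one was mts, the catalytic subunit of protein phosphatase 2A, at 0.30 ± 0.07 on the log2 scale (adjusted p = 0.00444, edgeR quasi-likelihood test), and mts was also the one in homozygotes, at 0.43 ± 0.12 (adjusted p = 0.0406), where 5.86% of all genes were called. In homozygotes against wild type over both states 1 of the 16 rose, Bdbt, a partner of the kinase DBT, at 0.37 ± 0.09 (adjusted p = 0.00982), where 9.11% of all genes were called. Of 4 transcription partners, 2 rose with injury in homozygotes, where 4.71% of all genes were called higher: kay, the fly Fos, at 0.86 ± 0.19 (adjusted p = 0.00671) and the nuclear receptor Eip75B at 0.80 ± 0.19 (adjusted p = 0.011). Both also rose in the mean of 3 genotypes, where 11.6% of all genes were called higher, kay by 0.61 ± 0.11 (adjusted p = 0.000296) and Eip75B by 0.40 ± 0.11 (adjusted p = 0.0121). The other 2, nej and Hr51, did not pass in either.

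The 8 peptide genes of clock neurons and their receptor, Pdf and Pdfr among them, held no injury call in edgeR. At an unadjusted p under 0.05 there were 4 of the 8 in homozygotes (22.4% of all genes), 0 in heterozygotes (18.9%), 0 in wild type (14.1%) and 1 in the mean of 3 genotypes (32.8%). In homozygotes against wild type over both states, where 9.11% of all genes were called, 1 fell, Dh44, a CRF-like peptide, by 0.59 ± 0.17 (adjusted p = 0.0275, edgeR quasi-likelihood test), and in uninjured flies by 0.87 ± 0.24 (adjusted p = 0.0412). Of 12 genes known to cycle in fly heads, 1 rose and 3 fell with injury in the mean of 3 genotypes, where 11.6% of all genes were called higher and 6.71% lower. The gene e, whose product ebony joins beta-alanine to amines, rose by 1.04 ± 0.16 (adjusted p = 6.15e-05). The 3 that fell were Pdh, a photoreceptor dehydrogenase, by 0.53 ± 0.12 (adjusted p = 0.0031), Ugt35b, a UDP-glycosyltransferase, by 0.52 ± 0.11 (adjusted p = 0.00248), and the cytochrome P450 Cyp4d21 by 0.74 ± 0.22 (adjusted p = 0.0213). The other 8, including to, Slob and trpl, did not pass. The median of these 12 was 0.03.

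The largest genotype difference on any clock list was that of Ugt35b. Of the same 12 genes, 1 was lower, Ugt35b, and 1 higher, CG11891, in each mutant genotype over both states. There 9.11% of all genes were called for homozygotes and 1.49% for heterozygotes. The median log2 difference of the 12 was 0.02 in homozygotes and 0.01 in heterozygotes. Ugt35b averaged 1.08 CPM in homozygous injured flies against 202.2 CPM in wild-type injured flies, a log2 difference of -7.60 ± 0.22 (adjusted p = 5.59e-17, edgeR quasi-likelihood test), and 1.58 CPM in homozygous uninjured flies against 251.2 CPM in wild-type uninjured flies. In heterozygous injured flies it averaged 78.0 CPM and in heterozygous uninjured flies 119.7 CPM. CG11891 was higher in homozygotes than in wild type over both states by 1.62 ± 0.16 (adjusted p = 9.55e-08), with 82.9 CPM against 27.0 CPM, and in heterozygotes by 0.91 ± 0.16 (adjusted p = 0.00206). The other 10 did not pass for genotype, in either mutant genotype over both states.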

How the data were processed

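RNA of whole male flies was sequenced as 24 libraries in 6 groups. The authors deposited RSEM expected counts per gene and per transcript, and tables of their comparisons with log2 fold changes and adjusted p-values. The submitters' processing notes name build dm6 and the programs RSEM 1.2.22, STAR 2.4.2a, edgeR 3.10.5 and CASAVA. All deposited values were whole numbers, so rounding changed nothing. The authors' tables run first-named over second-named group and were turned round where quoted. Gene models came from Ensembl.

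For tests, edgeR 4.0.16 (R 4.3.3) fitted quasi-likelihood models to the counts, with TMM factors, filterByExpr, 1 mean per group over 24 libraries (18 residual degrees of freedom), two-sided, Benjamini-Hochberg over all 13868 genes or 26667 transcripts, called under 0.05. There were 12 comparisons: injury by genotype and on average, heterozygotes and homozygotes against wild type by injury state and on average, and 2 differences of injury responses. SE is the log2 change over the square root of F. CPM uses TMM sizes. Depth limits per to 76 to 265 counts a library, and such counts include PCR copies. Correlations used log2(CPM + 0.5) with group means removed and 100000 permutations within groups, two-sided. The per to tim and cwo to tim ratios and the correlations with markers were added after values were seen. Fits were checked on simulated counts.

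Alternatives were DESeq2 1.42.0, RLE factors, no filter, only the groups compared, a replicate block, a pseudocount of 2 CPM, and leaving out each library. The named genes are Rel, the 8 members, the 5 most similar genes of tim, vri and Clk, and called members of 4 clock lists, up to 4 per comparison. Members and lists were chosen with earlier results of these data known. Replicate numbers were checked for pairing and not used as one.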

Additional observations from a re-analysis of the deposited data

Results flagged for a closer look

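Among 48 groups of 4 libraries (8 genes in 6 groups), 2 held a library far from the other 3, and chance alone gives about 1 in 20. In homozygous injured flies, replicate 1 had 357.7 CPM of Pdp1 and the other 3 libraries had 131.8 to 156.5 CPM. The same library had a summed 2536 CPM of neuron markers. In heterozygous injured flies, replicate 3 had 171.9 CPM of Pdp1 and the other 3 had 142.2 to 143.7 CPM.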

How the results depend on the processing

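Over the alternatives, 1600 of 1632 fold changes of the 8 genes kept their direction and their side of the threshold, 28 lost a call, 4 gained one and 0 reversed. Most of the 1632 were not called in the main fit and so had no call to lose. Leaving out 1 library, tim in the mean of 3 genotypes held in 12 of 24 fits. For cry in homozygotes over both states it was 10 of 16, and for per injury in homozygotes 2 of 8. Under 5 other alternatives per in homozygotes held in 3, and cwo in homozygotes and cry in 4 each. The cwo and per changes in the mean of 3 genotypes and the tim change in heterozygotes kept their calls under every alternative run. With only the groups compared, 0 clock genes were called for injury in homozygotes (2 in the fit of all libraries) and 0 for homozygotes against wild type over both states (1 in the fit of all libraries). Fewer libraries then set the spread. Replicate numbers did not pair the samples: residuals of same-numbered libraries correlated from -0.49 to 0.41, with 23 of 60 pairs over 0.1. With the replicate block 1 clock gene was called for injury in homozygotes, cwo, while per had an adjusted p of 0.0509. No other clock gene count changed with the block. Leaving out 1 library gave 1 to 2 clock genes called for injury in homozygotes, 2 to 3 in the mean of 3 genotypes, 0 to 2 for homozygotes against wild type over both states and 0 to 1 among injured flies. DESeq2 called 1 clock transcript in homozygotes against wild type among injured flies, Clk-RH, and 1 over both states, cry-RA, where edgeR called 0 of them (1.61% and 3.97% of all transcripts). The cause was not tested. Depth limits per most, with 76 counts in the lowest library.

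Counts over all genes moved more. With only the groups compared the calls were 278 for injury in heterozygotes (658 otherwise), 353 for injury in homozygotes (813), 33 and 21 for heterozygotes against wild type in uninjured and injured flies (69 and 41), and 284 for homozygotes against wild type in injured flies (594). DESeq2 gave 141 and 70 for the heterozygous pair and 3 for the injury response of homozygotes minus wild type (0). Leaving out 1 library moved 5 of these counts by over 1.5 times. The ranges were 380 (without heterozygous uninjured replicate 1) to 1495 (without heterozygous uninjured replicate 3) for injury in heterozygotes, 484 (without homozygous uninjured replicate 4) to 1582 (without homozygous injured replicate 4) for injury in homozygotes, and 302 (without wild-type uninjured replicate 4) to 450 for injury in wild type (525 otherwise). For heterozygotes against wild type they were 33 (without wild-type uninjured replicate 2) to 150 (without heterozygous uninjured replicate 3) in uninjured flies and 24 (without heterozygous injured replicate 2) to 39 in injured flies.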
